A study of Homo sapiens with 18 samples.

Results

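The translation initiation and elongation factor genes are 61 of the 58815 genes in the counts table. They were chosen by symbol, from names that start with EIF or EEF and a factor number. Of 204 matching symbols, 136 pseudogenes and 7 genes for eIF2 kinases and eIF4E-binding proteins were set aside. A filter that kept genes whose highest normalized count passed 145.73 left 12081 genes and 55 of the 61 members. EEF1G, EIF1AY, EIF2S3B, EIF3CL, EIF4E1B and EIF4E3 did not pass it and were not tested. Among all rows, 21257 carry no symbol, including the Ensembl gene of the eIF3 subunit EIF3G, which is therefore no member.

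RNA was sequenced from LM2, BrM and BoM cells, the lung-, brain- and bone-metastatic derivatives of MDA-MB-231, a triple-negative human breast cancer cell line. Each derivative carried a doxycycline-inducible short hairpin, either shCtrl or shWDR5 against WDR5. Per the study's methods 1 WDR5 hairpin served these libraries, so effects of that hairpin and of WDR5 depletion cannot be told apart. All 6 groups, the controls included, received doxycycline at 1 μg/mL for 3 days. Each group held 3 libraries, harvested at different passages of 1 derivative line, so the p-values measure the spread between passages and not between independent derivations. The BrM libraries are labelled BrM in their titles, BrM2 as a cell line and BrM3 by the study. Titles and cell line labels named the same line in all 18 libraries and set the groups, while the source label named another metastatic site in 12 of the 18. Library depth ran from 17485841 to 119667013 counts. The line's defining markers were checked. VIM lay between 1470 and 2200 CPM (counts of a gene relative to the scaled library total) and CD44 between 502 and 762 CPM. In all 18 libraries ESR1, PGR and CDH1 stayed at or below 0.722 CPM and the leukocyte marker PTPRC at or below 1.06 CPM. ERBB2, the HER2 gene, had been listed as low but lay between 40.6 and 83.3 CPM, where the median of all tested genes was 31.3 CPM. EPCAM, also listed as low, lay between 4.29 and 10.2 CPM.

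WDR5 is a scaffold protein of the complexes that methylate histone H3, and it also binds MYC on chromatin. WDR5 was at 108, 126 and 134 CPM in LM2_shCtrl and at 24.2, 24.5 and 20.02 CPM in LM2_shWDR5, at 86.3, 91.8 and 79.9 against 21.2, 22.0 and 24.5 CPM in the BrM groups, and at 87.1, 91.6 and 84.4 against 13.7, 21.3 and 21.8 CPM in the BoM groups. The shWDR5 and shCtrl libraries did not overlap in any line, and the log2 fold change averaged over the 3 lines was -2.21 (edgeR adjusted p = 9.65e-12). Here and below, CPM are scaled by trimmed-mean (TMM) factors, the p-values come from edgeR's quasi-likelihood test over all 18 libraries, and they are Benjamini-Hochberg adjusted over the 12081 tested genes.

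Translation starts when eIF2 brings the initiator tRNA to the small ribosomal subunit. The eIF4F complex (eIF4E, eIF4G and eIF4A) recruits the subunit to the mRNA cap, eIF3 holds the assembly together, and eIF1 and eIF1A govern the search for the start codon. eIF5 and eIF5B complete the joining of the large subunit, after which eEF1 delivers each aminoacyl-tRNA and eEF2 moves the ribosome along. Many mRNAs of this machinery begin with a cytosine followed by a run of pyrimidines, the TOP motif, through which growth signals set their translation.

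The first transcribed bases of members are shown because they hold this start motif, which the choice by symbol did not use. RefSeq starts on GRCh38.p14 were matched for 50 of the 61 members, and 43 of these lay within 50 bases of the start of the Ensembl canonical transcript. A start of C and 4 further pyrimidines, on the transcribed strand only, was found in 12 of the 50 (24%). Among 27305 RefSeq promoter entries, which were not limited to expressed genes or matched to the members' level, the share was 4.04%. The windows run 5′ to 3′ on the transcribed strand, with 10 bases before the start in lower case and the first 20 transcribed bases in capitals.
EEF1A1, chr6:73521013-73521042, minus strand: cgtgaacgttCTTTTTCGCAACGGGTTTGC
EEF2, chr19:3985444-3985473, minus strand: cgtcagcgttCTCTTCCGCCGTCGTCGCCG
EIF2D, chr1:206612446-206612475, minus strand: ccagccgggcCCTTTTCGCGGCCGGGCCCC
EIF3F, chr11:7987327-7987356, plus strand: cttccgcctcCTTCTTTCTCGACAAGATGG
EIF4B, chr12:53006446-53006475, plus strand: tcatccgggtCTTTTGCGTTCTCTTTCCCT
EIF1, chr17:41688875-41688904, plus strand: ccgcccctctGCCCCAGTCACTGAGCCGCC
EIF3J, chr15:44537137-44537166, plus strand: ccgccgtgctAACTCCTCGCTAGCTCTCCC
EIF3B, chr7:2354817-2354846, plus strand: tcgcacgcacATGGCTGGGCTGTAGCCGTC
EEF1AKMT2, chr10:124791868-124791897, minus strand: cgtccgctctGCCTGTGCCCCGTCTCTATG
EEF1A1, EEF2, EIF2D, EIF3F and EIF4B open with 5 to 10 pyrimidines and the others with none. EEF1A1, EEF2, EIF3F and EIF4B were added for their start after their values were seen. EEF1B2 was added with them but is not shown. It had 0 pyrimidines at its RefSeq start, which lay 286 bases from the canonical start. The others shown are among the 4 members with the smallest p in their direction in the mean over lines. Of those 4, EIF4G3 and EIF4G2 are not shown because their RefSeq start lay over 50 bases from the canonical start, and EEF1A2 had no matched entry. After WDR5 knockdown EEF1A1, EIF3F and EIF4B rose while EEF2 and EIF2D fell, so members with this start moved both ways. Over the 50 members, a C and 4 pyrimidines stood at the start of 4 of the 22 that rose, 3 of the 5 that fell and 4 of the 18 that were tested and not called.

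The motif CACGTG, the E-box that MYC and related factors bind, lay in the 300-base window around the RefSeq start in 11 of the 50 members (22%), against 7.43% of all entries. The entries compared were again not limited to expressed genes. The motif reads the same on both strands, so each match counts for both. It lay in 6 of the 22 members that rose, 5 of the 18 not called and 0 of the 5 that fell. The matches in the 5 members not called, EEF2K, EIF2B3, EIF3K, EIF4E and EIF4G1, are not shown, and a link of the motif to the rise was not tested. The matches in the 6 members that rose are given with 10 bases on each side, the motif in capitals and its distance from the RefSeq start behind the name.
EIF4B (-22), chr12:53006424-53006449, plus strand: ccgctataatCACGTGattgcctcat
EIF1B (-54), chr3:40309643-40309668, plus strand: gcgggacggtCACGTGggaggggccg
EIF3F (-68), chr11:7987259-7987284, plus strand: agctctagctCACGTGgtgtatattc
EIF4A3 (-121), chr17:80147234-80147259, minus strand: agttccctttCACGTGacgaagagtg
EIF5A2 (-187), chr3:170908809-170908834, minus strand: taatccgcagCACGTGgggttgccag
EIF4H (-199), chr7:74174147-74174172, plus strand: gccgccgcacCACGTGggctgcagag
These letters are a description of the windows, and binding was not measured in these libraries.

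The question asked of these genes was how their RNA levels changed when WDR5 was depleted in each of the 3 derivatives. Over the 3 lines together, 26 of the 55 tested members rose and 6 fell at an adjusted p under 0.05 by edgeR's quasi-likelihood test, where 15.6% of all tested genes rose, 19.9% fell and 35.4% changed either way. Those shares were 47.3% and 10.9% of the members. The members' median log2 fold change was 0.16, against 0.00281 over all tested genes, 45 of the 55 lay above 0, and the largest rise was 0.47 for EIF1. EIF4G3, a scaffold of the cap complex, and EIF4G2, its relative, were called in each line, at -0.65 and 0.37 in the mean. When offsets for GC content were added to the fit, 33 members rose in the mean, where 31.5% of all tested genes did.

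**Figure D1:**
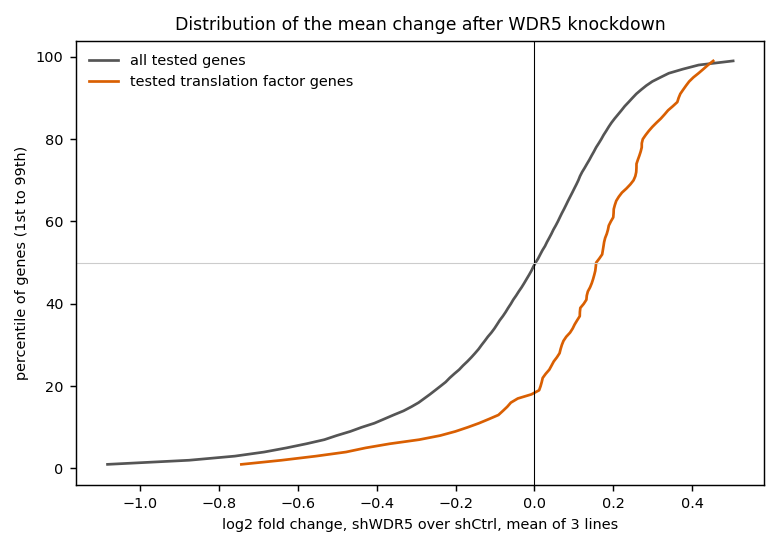
Percentiles of the log2 fold change of shWDR5 over shCtrl, averaged over the 3 lines (x axis), for all 12081 tested genes and the 55 tested translation factor genes (lines; y axis, percentile). The members' line lies to the right of that of all genes over most of its course, with medians of 0.16 and 0.00281.

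Members are abundant genes, and abundance moved with the result. Their median level was 158.5 CPM against 31.3 CPM over all tested genes, and 44 of the 55 lay above the latter. Of the 1289 tested genes above the members' median level, 39.2% rose and 6.13% fell, and their median log2 fold change was 0.14. Of the 27 members at that level, 15 (55.6%) rose and 2 fell, with a median of 0.19. This split by level was chosen after the data were seen, and the part of abundance in the members' rise was not tested. The scaling factors of the trimmed-mean normalization also moved with the hairpin. They lay between 0.909 and 1.00 in the shWDR5 libraries and between 1.00 and 1.09 in the shCtrl libraries. Spike-in RNA was added to the samples per the labels but was not analysed here, so every change is relative to the library as a whole, and RNA per cell was not analysed here.

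Within single lines fewer members were called. In LM2 cells 2 rose and 4 fell, where 1.48% of all tested genes rose, 4.78% fell and 6.26% changed either way. In BrM cells 10 rose and 2 fell, against 2.87% and 7.87% of all genes. In BoM cells 7 rose and 2 fell, against 5.41% and 10.7%. Same-numbered BoM libraries deviated together in all 3 pairs (correlations over 0.1). The lowest correlation was 0.145, below the 0.211 of BoM_shCtrl replicate 2 with BoM_shWDR5 replicate 3. With the replicate number as a block 10 rose and 4 fell in BoM cells, against 11.2% and 15% of all genes. The calls added were EEF1D, EIF1AD and EIF1AX, which rose, and EEF2 and EEF1AKMT2, which fell. The members called in LM2 cells were EIF1 and EIF4G2, which rose, and EIF4G3, EIF3D, EIF2D and EEF1AKMT2, which fell. EIF4G3 also fell in both other lines, with EEF1AKMT2 in BrM and EEF1A2 in BoM cells. EIF4G2, EIF4A2, EIF3B, EIF3J and EEF1A1 rose in both BrM and BoM cells. Most of these single-line calls were lost when some 1 library was left out, as given with each gene. The medians of the members were 0.11, 0.18 and 0.19 in LM2, BrM and BoM cells, and 40, 45 and 46 of the 55 lay above 0. The balance in LM2 cells depended on the fit: DESeq2 called 7 members up and 5 down there, where 3.39% of all tested genes rose and 6.07% fell. With median-of-ratios size factors edgeR called 5 up and 3 down, against 1.66% and 4.42% of all genes. With offsets for GC content it called 11 up and 5 down, against 8.8% and 8.48%. With the replicate number as a block it called 8 up and 4 down, against 3.86% and 8.01%, though 1 same-numbered LM2 pair correlated at only 0.026. Single libraries also weighed on these counts. Leaving out any LM2 library, or BrM_shCtrl replicate 1 or 3, left 1 or 2 members that fell in LM2 cells, and between 0 and 6 rose there as single libraries were left out. In BrM cells the 10 that rose became 2 without BrM_shCtrl replicate 1, 2 without BrM_shCtrl replicate 2, 1 without BrM_shCtrl replicate 3, 2 without BrM_shWDR5 replicate 2 and 1 without BrM_shWDR5 replicate 3. In BoM cells the 7 became 3 without BoM_shCtrl replicate 1, 4 without BoM_shCtrl replicate 2, 4 without BoM_shWDR5 replicate 2 and 11 without BoM_shWDR5 replicate 1.

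**Figure D2:**
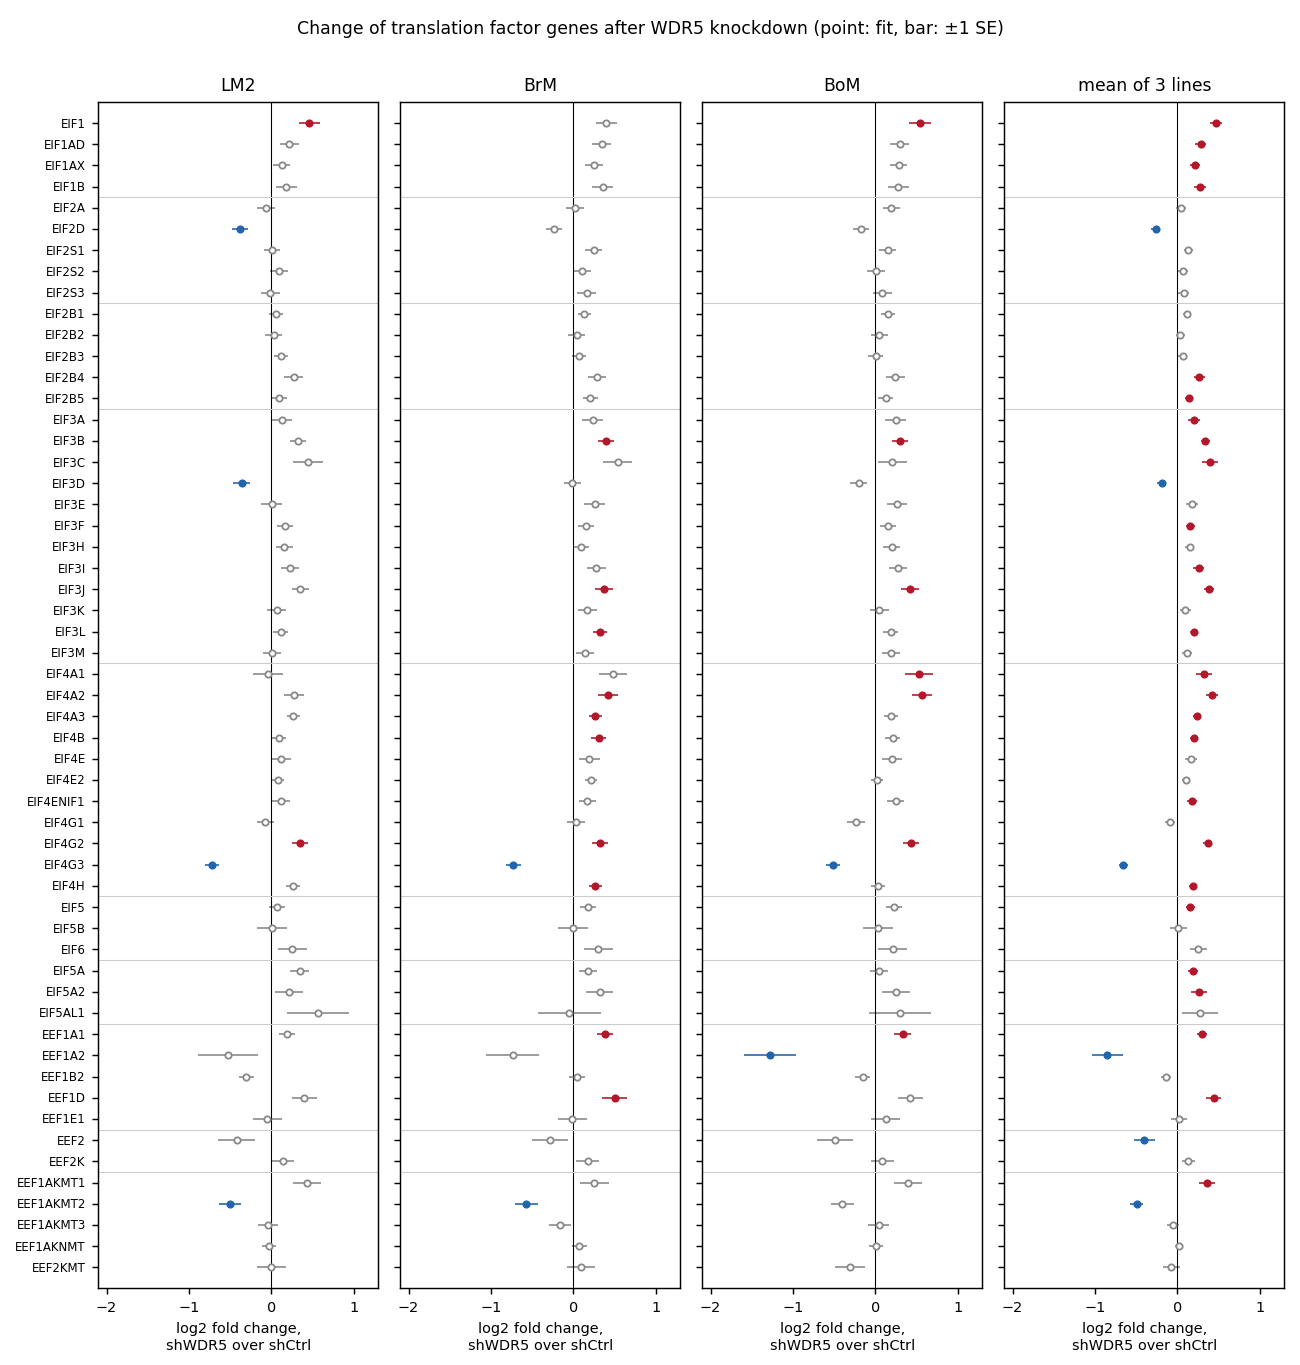
Log2 fold change of shWDR5 over shCtrl (x axis) for the 55 tested members, in rows grouped by role and separated by grey lines, in each line and averaged over the 3 lines. Points are fitted values and bars 1 standard error, filled red for a rise and blue for a fall at an adjusted p under 0.05. In the averaged panel 26 points are red and 6 blue, and EIF4G3 is blue in all 4 panels.

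Overlap between libraries was counted as well. In LM2 cells all 3 shWDR5 libraries lay above all 3 shCtrl libraries for 18 members and below them for 5, where 12.7% and 13.3% of all tested genes did so. In BrM cells 29 lay above and 3 below, against 20.2% and 16.2%. In BoM cells 18 lay above and 3 below, against 15.1% and 15.3%. In every line 8 members lay above, where 4.44% of all tested genes did, and these were EEF1D, EIF1, EIF2B4, EIF3B, EIF3J, EIF4A2, EIF4A3 and EIF4G2. EIF4G3 and EEF1AKMT2 lay below in every line, as did 6.13% of all tested genes. The members' summed level was 22590, 22200 and 24110 CPM in LM2_shCtrl against 26990, 25350 and 23970 CPM in LM2_shWDR5, which overlapped. In BrM cells it was 25670, 24490 and 24900 against 28850, 32170 and 33560 CPM, and in BoM cells 26230, 26380 and 26380 against 29690, 34190 and 31370 CPM, with the shWDR5 libraries higher and no overlap in either. EEF1A1 alone took 1.04 to 1.61% of all counts of a library, of the 2.34 to 3.16% that the members took together.

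No member's response differed between lines at an adjusted p under 0.05 by edgeR's quasi-likelihood test. In the BrM and LM2 contrast 0.00828% of all tested genes differed, in the BoM and LM2 contrast 0%, and in the BoM and BrM contrast 0.00828%. At an unadjusted p under 0.05 there were 2, 1 and 0 members in these contrasts, and DESeq2 called 0. Between BrM and LM2 cells these were EEF1B2, where the log2 fold change was higher in BrM cells by 0.35 ± 0.14 SE, and EIF3D, higher there by 0.35 ± 0.14 SE. Between BoM and LM2 cells it was EIF4A1, at 0.58 ± 0.25 SE. The log2 fold change was higher in BrM than in LM2 cells for 42 of the 55 members, with a median difference of 0.085 against 0.0002 over all tested genes. It was higher in BoM than in LM2 cells for 36 and in BoM than in BrM cells for 25. These shifts were not tested, so the lack of calls does not show that the lines responded alike. A call in one line and not in another in what follows is likewise not shown to differ between lines. Genome positions are those of the whole gene on GRCh38 in GENCODE v44. The strand setting of the counts is not given in the sources used here, and 33 of the 55 tested members, EIF4G3, EIF3B and EIF4A2 among them, overlap a gene on the other strand whose reads could then not be told apart.

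Among the initiation factors, the eIF4F and cap-binding genes held both falls and rises. This group was set by symbol. It also holds EIF4A3 and EIF4ENIF1, which are not parts of eIF4F, and EIF4G2, which lacks the eIF4E-binding part. Of 11 tested, 7 rose, 1 fell and 3 were not called in the mean over lines. For this and the role groups below, the shares of all tested genes were 15.6% risen and 19.9% fallen in that mean. Among tested genes above the members' median level they were 39.2% and 6.13%. The role groups were not compared with genes of like level. EIF4G3 (chr1:20806292-21177285, minus strand) encodes eIF4GII, a scaffold that joins eIF4E to eIF4A. In LM2 cells EIF4G3 measured 163, 162 and 164 CPM with shCtrl and 102, 103 and 94.6 CPM with shWDR5, in BrM cells 131, 119 and 124 against 81.8, 73.0 and 78.2 CPM, and in BoM cells 173, 161 and 163 against 132, 114 and 106 CPM. It lay lower in every shWDR5 library than in every shCtrl library of the same line. The log2 fold changes were -0.72 in LM2, -0.73 in BrM and -0.51 in BoM cells, and the mean was -0.65 ± 0.05 SE on the log2 scale (edgeR adjusted p = 7.00e-08). All 4 calls held in each of the 18 fits that left out 1 library and under the 7 or 8 other settings tried.

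EIF4G2 (chr11:10797050-10808940, minus strand) encodes DAP5, a relative of eIF4G without the eIF4E-binding part that serves cap-independent initiation. The 3 shCtrl libraries of LM2 cells held 1530, 1342 and 1287 CPM of EIF4G2 and the shWDR5 libraries 1808, 1802 and 1748 CPM. BrM cells held 1551, 1448 and 1687 against 1935, 2047 and 2072 CPM and BoM cells 1744, 1516 and 1767 against 2332, 2378 and 2176 CPM. It was higher after knockdown with no overlap in any line, with a change of 0.37 ± 0.05 SE on the log2 scale (edgeR adjusted p = 6.46e-05) in the mean. It was called in each line. In BoM cells the call held in all 18 fits that left out 1 library. In BrM cells it was lost without BrM_shCtrl replicate 1 or 2 or BrM_shWDR5 replicate 2 or 3 (adjusted p up to 0.142 over all alternatives). In LM2 cells it was lost without LM2_shCtrl replicate 2 or 3, LM2_shWDR5 replicate 1, 2 or 3 or BrM_shCtrl replicate 1 (adjusted p up to 0.171 over all alternatives). EIF4A2 (chr3:186783205-186789897, plus strand), a helicase that unwinds the leader of the mRNA, also rose without overlap. Levels of EIF4A2 went from 465, 426 and 474 CPM with shCtrl to 547, 589.7 and 534 CPM with shWDR5 in LM2 cells, from 694, 590.5 and 660.4 to 1088, 787 and 807 CPM in BrM cells and from 651, 663 and 690.2 to 905, 966 and 1133 CPM in BoM cells. Its mean change was 0.42 ± 0.07 SE on the log2 scale (edgeR adjusted p = 0.000182), and it was called in BoM cells, in all 18 such fits, and in BrM cells, where the call was lost without BrM_shCtrl replicate 1, 2 or 3 or BrM_shWDR5 replicate 1 (adjusted p up to 0.131 over all alternatives).

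**Figure D3:**
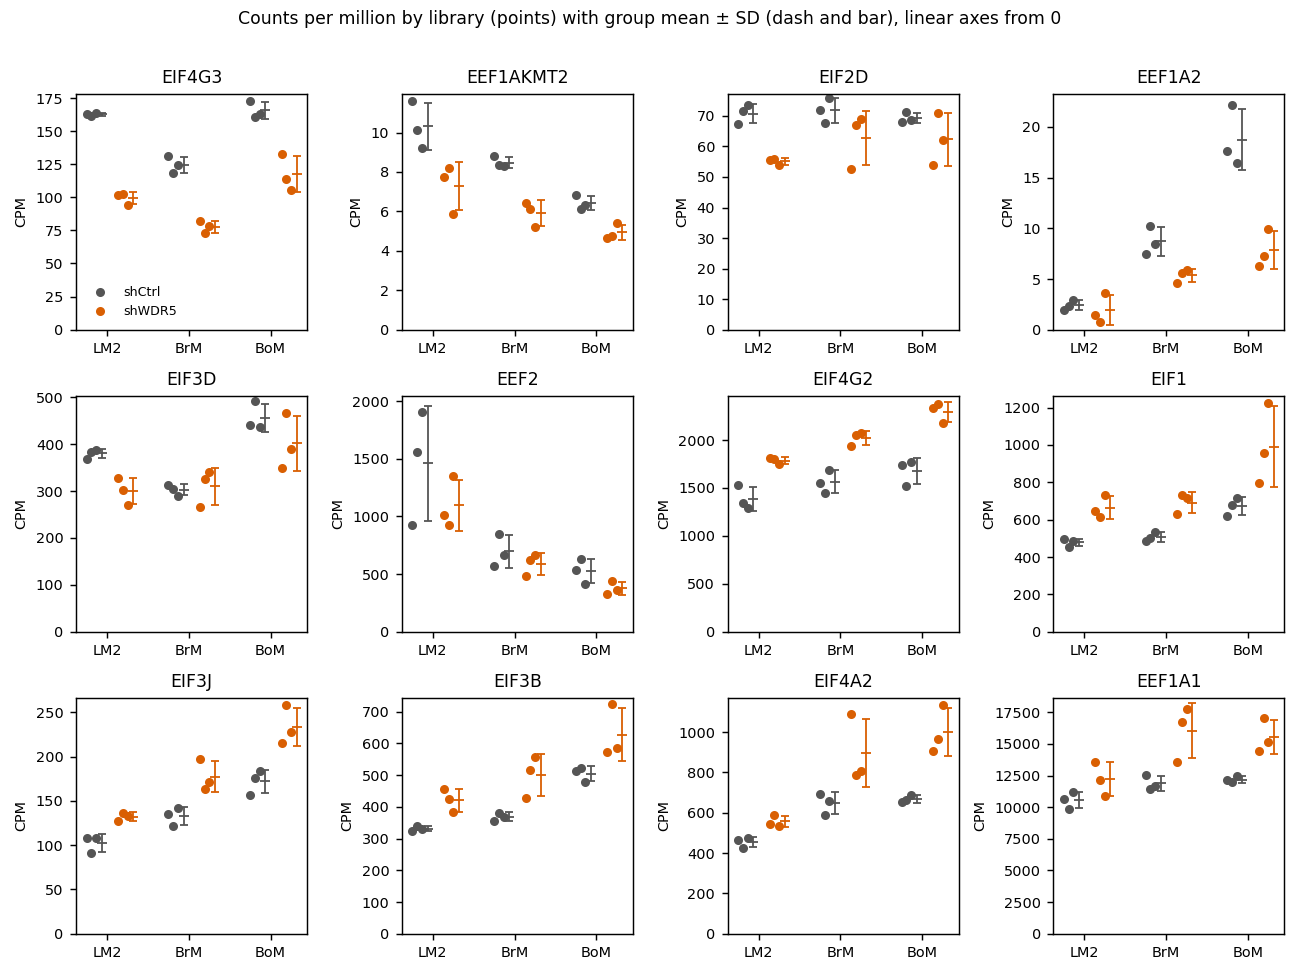
Level in CPM (y axes, linear from 0) of 12 members in each library, by line, with grey points for shCtrl and orange points for shWDR5 and the group mean ± SD of 3 libraries beside them. The 6 genes that fell are shown first, followed by 6 of those that rose. EIF4G3 and EEF1AKMT2 are lower, and EIF4G2, EIF1, EIF3J, EIF3B and EIF4A2 higher, in every shWDR5 library of a line than in its shCtrl libraries.

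The other genes of the eIF4F and cap-binding group that rose moved less. They were EIF4A3, a helicase of the exon junction complex, at 0.24 on the log2 scale, EIF4B, which stimulates eIF4A, at 0.20, its relative EIF4H at 0.19, and EIF4ENIF1, the carrier of eIF4E into the nucleus, at 0.18. The call of EIF4ENIF1 was lost without LM2_shCtrl replicate 3, LM2_shWDR5 replicate 2, BrM_shCtrl replicate 2, BrM_shWDR5 replicate 2, BoM_shCtrl replicate 1 or BoM_shWDR5 replicate 2 (adjusted p up to 0.109 over all alternatives). In BrM cells EIF4B, EIF4H and EIF4A3 were also called. There the call of EIF4B was lost without BrM_shCtrl replicate 1, 2 or 3 or BrM_shWDR5 replicate 1, 2 or 3 (adjusted p up to 0.133 over all alternatives), that of EIF4H held in 7 of 18 fits, those without LM2_shCtrl replicate 1 or 3, LM2_shWDR5 replicate 3, BoM_shCtrl replicate 1 or BoM_shWDR5 replicate 1, 2 or 3 (adjusted p up to 0.184 over all alternatives), and that of EIF4A3 held in 7 of 18 fits, those without LM2_shCtrl replicate 1, LM2_shWDR5 replicate 3, BoM_shCtrl replicate 1, 2 or 3 or BoM_shWDR5 replicate 1 or 3 (adjusted p up to 0.17 over all alternatives). EIF4A1, the major helicase of most cells, was also called at 0.32, but its count is uncertain. It stood between 1.81 and 6.30 CPM in all libraries, and 39.9% of its 50-base stretches occur in other annotated genes that cover the same locus on the same strand, such as SENP3-EIF4A1. Its call in BoM cells was lost without LM2_shWDR5 replicate 2, BrM_shWDR5 replicate 2 or 3, BoM_shCtrl replicate 1 or 2 or BoM_shWDR5 replicate 1 or 3 (adjusted p up to 0.142 over all alternatives). EIF4E, EIF4E2 and EIF4G1 were not called, with mean values of 0.17, 0.10 and -0.09.

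Ratios of paralogues within a library compared the scaffolds directly. They were made from the same counts as the single-gene tests and are not independent of them. The exact permutation test of a paralogue ratio exchanged hairpin labels within lines over 8000 arrangements, which cannot give a two-sided p below 0.00025, and was adjusted over the 9 of 10 listed pairs that could be tested. The ratio of EIF4G1 to EIF4G3 was 4.17, 5.34 and 5.21 in LM2_shCtrl against 7.71, 7.53 and 7.81 in LM2_shWDR5, 6.68, 8.33 and 7.27 against 11.0, 13.5 and 13.2 in BrM cells, and 5.45, 5.49 and 4.72 against 6.08, 6.99 and 5.88 in BoM cells. It was higher after knockdown in every library of each line, by 0.56 on the log2 scale in the mean (adjusted exact p = 0.00075). The ratio of EIF4G1 to EIF4G2 fell by 0.46 (adjusted exact p = 0.00075), from 0.437 to 0.685 over the 9 shCtrl libraries to 0.287 to 0.501 over the 9 shWDR5 libraries. Those of EIF4A1 to EIF4A2 (-0.12, adjusted exact p = 0.416), EIF4A1 to EIF4A3 (0.05, adjusted exact p = 0.618) and EIF4E to EIF4E2 (0.06, adjusted exact p = 0.495) were not called.

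**Figure D4:**
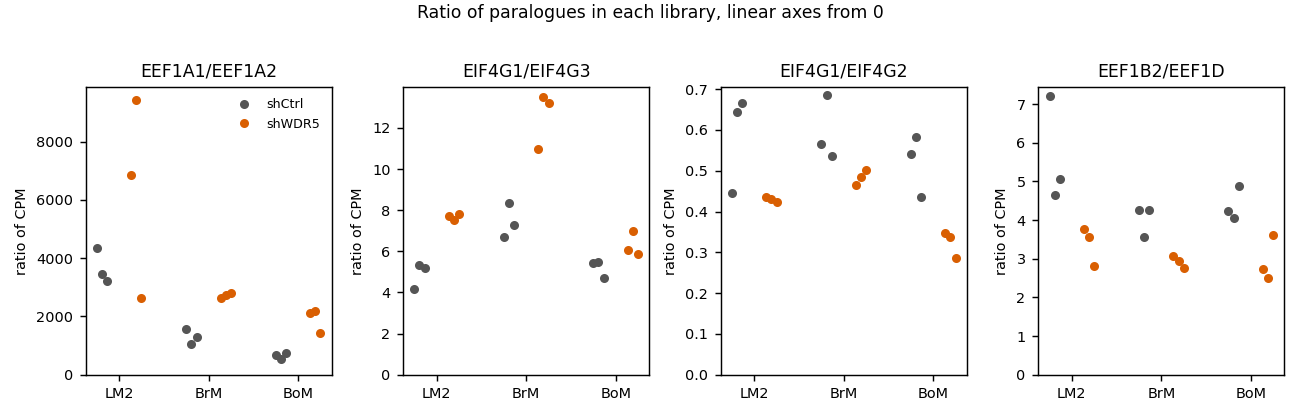
Ratio of the CPM of 2 paralogues in each library (y axes, linear from 0), by line, with shCtrl in grey and shWDR5 in orange, 3 libraries per group. The EIF4G1/EIF4G3 ratio is higher and the EIF4G1/EIF4G2 and EEF1B2/EEF1D ratios lower in every shWDR5 library than in the shCtrl libraries of its line, while EEF1A1/EEF1A2 overlaps in LM2 cells.

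All 4 tested genes of the eIF1 and eIF1A group rose in the mean over lines. EIF1 (chr17:41688885-41692668, plus strand) encodes the factor that keeps the scanning ribosome from stopping at near-cognate codons. EIF1 was at 494, 454 and 485 CPM in LM2_shCtrl and at 647, 614 and 733 CPM in LM2_shWDR5, at 485, 503 and 535 against 628, 729.8 and 717 CPM in the BrM groups, and at 619, 679 and 716 against 794, 956 and 1223 CPM in the BoM groups. The shWDR5 libraries lay above the shCtrl libraries in every line, and the change was 0.47 ± 0.07 SE on the log2 scale (edgeR adjusted p = 0.000128) in the mean. It was called in BoM cells in all 18 fits that left out 1 library, and in LM2 cells, where the call held in 5 of 18 fits, those without BrM_shWDR5 replicate 1, BoM_shCtrl replicate 1 or 3 or BoM_shWDR5 replicate 1 or 3 (adjusted p up to 0.157 over all alternatives). EIF1AD (chr11:65996545-66002176, minus strand), a gene for a protein with an eIF1A domain, rose by 0.29 (edgeR adjusted p = 0.0032). In LM2 cells EIF1AD measured 48.5, 49.0 and 41.9 CPM with shCtrl and 58.4, 58.4 and 46.7 CPM with shWDR5, in BrM cells 50.2, 51.1 and 47.4 against 56.2, 68.2 and 70.8 CPM, and in BoM cells 48.3, 43.4 and 46.8 against 63.8, 56.8 and 51.5 CPM. Groups overlapped in LM2 cells. EIF1B, a close copy of EIF1, and EIF1AX, the X-linked gene of eIF1A, rose by 0.27 and 0.22. The ratio of EIF1 to EIF1B rose by 0.20 on the log2 scale in the mean (adjusted exact p = 0.0167). It lay between 9.17 and 13.9 over the 9 shCtrl libraries and between 9.10 and 16.6 over the 9 shWDR5 libraries, so these ranges overlapped. By line the change was 0.27 in LM2, 0.05 in BrM and 0.27 in BoM cells. Within lines the groups overlapped in BrM cells and were apart in LM2 and BoM cells.

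Of the 12 tested eIF3 genes, 7 rose, 1 fell and 4 were not called. EIF3J (chr15:44537125-44563029, plus strand), the loosely bound subunit at the decoding site, and EIF3B (chr7:2354086-2380745, plus strand), a core subunit, had the smallest p among those that rose. The 3 shCtrl libraries of LM2 cells held 108, 91.2 and 108 CPM of EIF3J and the shWDR5 libraries 128, 136 and 133 CPM. BrM cells held 135, 122 and 142 against 197, 164 and 171 CPM and BoM cells 157, 176 and 183 against 216, 258 and 228 CPM. Its change was 0.38 ± 0.06 SE on the log2 scale (edgeR adjusted p = 0.000128). Levels of EIF3B went from 323, 339.9 and 331 CPM with shCtrl to 455, 425 and 384 CPM with shWDR5 in LM2 cells, from 354, 382 and 369 to 429, 515 and 557 CPM in BrM cells and from 512, 524 and 478 to 572, 723 and 585 CPM in BoM cells. Here the mean change was 0.34 ± 0.06 SE on the log2 scale (edgeR adjusted p = 0.000171), and both genes were higher without overlap in every line. The EIF3J call in BrM cells was lost without BrM_shCtrl replicate 1, 2 or 3 or BrM_shWDR5 replicate 1 or 3 (adjusted p up to 0.131 over all alternatives), and in BoM cells it was lost without BoM_shCtrl replicate 1 or BoM_shWDR5 replicate 2 (adjusted p up to 0.0544 over all alternatives). The EIF3B call in BrM cells was lost without BrM_shCtrl replicate 1 or 3 or BrM_shWDR5 replicate 2 or 3 (adjusted p up to 0.0798 over all alternatives), and in BoM cells it held in 6 of 18 fits, those without LM2_shCtrl replicate 1, LM2_shWDR5 replicate 3, BrM_shWDR5 replicate 1 or 3 or BoM_shWDR5 replicate 1 or 3 (adjusted p up to 0.21 over all alternatives). EIF3I, EIF3L, EIF3F, EIF3A and EIF3C rose by 0.26, 0.21, 0.15, 0.20 and 0.40. The call of EIF3F held in 5 of 18 fits, those without LM2_shCtrl replicate 1, LM2_shWDR5 replicate 2, BrM_shWDR5 replicate 1, BoM_shCtrl replicate 3 or BoM_shWDR5 replicate 1 (adjusted p up to 0.105 over all alternatives), and that of EIF3A held in 4 of 18 fits, those without LM2_shWDR5 replicate 3, BrM_shCtrl replicate 1, BrM_shWDR5 replicate 2 or BoM_shWDR5 replicate 3 (adjusted p up to 0.0976 over all alternatives). EIF3L was also called in BrM cells, where the call was lost without BrM_shCtrl replicate 1, 2 or 3 or BrM_shWDR5 replicate 2 or 3 (adjusted p up to 0.0946 over all alternatives). The count of EIF3C is uncertain, since 45.2% of its 50-base stretches recur elsewhere, mainly in EIF3CL, and so is that of EIF3L, with 36.0%. EIF3E, EIF3H, EIF3K and EIF3M were not called, with mean values from 0.09 to 0.17.

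EIF3D (chr22:36510855-36529184, minus strand), the subunit that can itself bind the cap of some mRNAs, was the 1 eIF3 gene that fell. EIF3D was at 369, 384 and 389 CPM in LM2_shCtrl and at 328, 303 and 271 CPM in LM2_shWDR5, at 313, 305 and 290.3 against 265, 326 and 339.8 CPM in the BrM groups, and at 442, 492 and 437 against 350.1, 466 and 390.5 CPM in the BoM groups. The groups were apart in LM2 cells and overlapped in BrM and BoM cells. Its mean change was -0.19 ± 0.06 SE on the log2 scale (edgeR adjusted p = 0.0174), a call that held in 5 of 7 other settings and was lost at an adjusted p of up to 0.0987 in the rest. In LM2 cells it was -0.36 ± 0.10 SE on the log2 scale (edgeR adjusted p = 0.0423), a call that held in 7 of 18 fits, those without BrM_shWDR5 replicate 1 or 3, BoM_shCtrl replicate 1 or 2 or BoM_shWDR5 replicate 1, 2 or 3 (adjusted p up to 0.145 over all alternatives).

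None of the 3 genes of the eIF2 trimer was called in the mean over lines, with values of 0.13 for EIF2S1, 0.07 for EIF2S2 and 0.08 for EIF2S3. EIF2A, an alternative carrier of initiator tRNA, was not called either, at 0.05. EIF2D (chr1:206571292-206612465, minus strand), which can bring tRNA to the ribosome without eIF2 and helps to recycle small subunits, fell. In LM2 cells EIF2D measured 67.3, 71.5 and 73.5 CPM with shCtrl and 55.5, 56.0 and 53.9 CPM with shWDR5, in BrM cells 71.9, 67.6 and 76.0 against 52.6, 66.9 and 68.9 CPM, and in BoM cells 68.1, 71.2 and 68.5 against 53.8, 71.1 and 62.2 CPM. It was lower without overlap in LM2 cells, and the ranges overlapped in BrM and BoM cells. Its mean change was -0.26 ± 0.06 SE on the log2 scale (edgeR adjusted p = 0.00193), called in all 18 fits that left out 1 library, and in LM2 cells it was -0.38 ± 0.10 SE on the log2 scale (edgeR adjusted p = 0.0302), a call that was lost without LM2_shCtrl replicate 2 or 3 or LM2_shWDR5 replicate 1, 2 or 3 (adjusted p up to 0.138 over all alternatives).

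The exchange factor eIF2B, which reloads eIF2 with GTP, had 2 of its 5 genes called, both up. EIF2B4 (chr2:27364352-27370338, minus strand), its regulatory delta subunit, was higher without overlap in every line. The 3 shCtrl libraries of LM2 cells held 26.4, 33.2 and 33.6 CPM of EIF2B4 and the shWDR5 libraries 37.1, 37.6 and 39.0 CPM. BrM cells held 58.0, 57.7 and 56.1 against 58.2, 76.4 and 81.8 CPM and BoM cells 52.0, 61.0 and 56.1 against 62.1, 67.7 and 72.6 CPM. The mean change was 0.27 ± 0.07 SE on the log2 scale (edgeR adjusted p = 0.00449). EIF2B5 (chr3:184135038-184146127, plus strand), the catalytic epsilon subunit, rose by 0.14 (edgeR adjusted p = 0.0399). Levels of EIF2B5 went from 116, 109.5 and 109.8 CPM with shCtrl to 131, 125 and 106 CPM with shWDR5 in LM2 cells, from 131, 135 and 132 to 136, 168 and 170.5 CPM in BrM cells and from 164, 168 and 158 to 169, 193 and 179 CPM in BoM cells. Its ranges overlapped in LM2 cells, and the call held in 5 of 18 fits, those without LM2_shCtrl replicate 1, LM2_shWDR5 replicate 3, BrM_shWDR5 replicate 1, BoM_shCtrl replicate 1 or BoM_shWDR5 replicate 1 (adjusted p up to 0.0923 over all alternatives). EIF2B1, EIF2B2 and EIF2B3 were not called, at 0.12, 0.04 and 0.06.

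Of 3 tested genes of the later steps of initiation, 1 rose. EIF5 (chr14:103333544-103345025, plus strand), which makes eIF2 hydrolyse its GTP, rose by 0.16 (edgeR adjusted p = 0.0358). EIF5 was at 492, 414 and 425 CPM in LM2_shCtrl and at 480.2, 502 and 429.8 CPM in LM2_shWDR5, at 381, 381 and 412 against 492, 451 and 425 CPM in the BrM groups, and at 568, 504 and 556 against 638, 651 and 643 CPM in the BoM groups. The groups overlapped in LM2 cells, and the call held in 8 of 18 fits, those without LM2_shCtrl replicate 1, LM2_shWDR5 replicate 3, BrM_shCtrl replicate 3, BrM_shWDR5 replicate 3, BoM_shCtrl replicate 1 or 3 or BoM_shWDR5 replicate 1 or 3 (adjusted p up to 0.0781 over all alternatives). EIF5B, the GTPase of subunit joining, stood at 0.01, and EIF6, which keeps free large subunits apart, at 0.25, and neither was called. The eIF5A genes encode the hypusine-bearing factor that helps ribosomes through difficult peptide bonds, and 2 of 3 rose. In LM2 cells EIF5A measured 350.2, 399.7 and 349 CPM with shCtrl and 432, 443 and 534 CPM with shWDR5, in BrM cells 442, 478 and 449 against 444, 605 and 552 CPM, and in BoM cells 431, 506 and 463 against 456, 500.1 and 505 CPM. It was higher without overlap in LM2 cells, and overlapped in BrM and BoM cells. The 3 shCtrl libraries of LM2 cells held 32.9, 22.9 and 23.2 CPM of EIF5A2 and the shWDR5 libraries 34.9, 32.0 and 25.3 CPM. BrM cells held 34.5, 31.6 and 33.4 against 49.4, 39.2 and 39.6 CPM and BoM cells 39.97, 26.8 and 34.8 against 41.4, 41.0 and 39.9 CPM. It was higher without overlap in BrM cells only. The changes were 0.19 for EIF5A (chr17:7306999-7312463, plus strand; edgeR adjusted p = 0.0311) and 0.26 for EIF5A2 (chr3:170888418-170908644, minus strand; edgeR adjusted p = 0.0468). The call of EIF5A was lost without LM2_shCtrl replicate 3, LM2_shWDR5 replicate 3, BrM_shCtrl replicate 1 or 3, BrM_shWDR5 replicate 2 or 3, BoM_shCtrl replicate 1 or BoM_shWDR5 replicate 3 (adjusted p up to 0.0729 over all alternatives), and that of EIF5A2 held in 6 of 18 fits, those without LM2_shCtrl replicate 1, LM2_shWDR5 replicate 3, BrM_shWDR5 replicate 2 or 3 or BoM_shCtrl replicate 1 or 3 (adjusted p up to 0.0995 over all alternatives). EIF5AL1, a copy of EIF5A, was not called, at 0.27. The ratio of EIF5A to EIF5A2 was not called (-0.08, adjusted exact p = 0.618).

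The elongation genes divided, with 2 of 5 tested eEF1 genes up and 1 down. EEF1A1 (chr6:73489308-73525587, minus strand), the factor that carries aminoacyl-tRNA and the most abundant member, rose. Levels of EEF1A1 went from 10670, 9850 and 11160 CPM with shCtrl to 13590, 12150 and 10870 CPM with shWDR5 in LM2 cells, from 12550, 11450 and 11670 to 13600, 16760 and 17740 CPM in BrM cells and from 12130, 11950 and 12470 to 14460, 17030 and 15140 CPM in BoM cells. It was higher without overlap in BrM and BoM cells and overlapped in LM2 cells, with a change of 0.30 ± 0.06 SE on the log2 scale (edgeR adjusted p = 0.00062) in the mean. Its call in BrM cells was lost without BrM_shCtrl replicate 2 or 3 or BrM_shWDR5 replicate 2 or 3 (adjusted p up to 0.0974 over all alternatives), and in BoM cells it was lost without BoM_shCtrl replicate 1 or 2 or BoM_shWDR5 replicate 2 or 3 (adjusted p up to 0.124 over all alternatives). EEF1A2 (chr20:63488013-63499239, minus strand), the form otherwise typical of muscle and nerve, fell from a far lower level. EEF1A2 was at 1.95, 2.34 and 2.98 CPM in LM2_shCtrl and at 1.49, 0.788 and 3.63 CPM in LM2_shWDR5, at 7.45, 10.3 and 8.43 against 4.64, 5.63 and 5.84 CPM in the BrM groups, and at 17.6, 22.2 and 16.5 against 6.30, 7.24 and 9.94 CPM in the BoM groups. The ranges were apart in BrM and BoM cells, and the mean change was -0.85 ± 0.19 SE on the log2 scale (edgeR adjusted p = 0.00254). In BoM cells, where the gene was highest, it was -1.28 ± 0.32 SE on the log2 scale (edgeR adjusted p = 0.0109). The ratio of EEF1A1 to EEF1A2 rose, by 0.60 in LM2, 1.07 in BrM and 1.57 in BoM cells on the log2 scale, and by 1.08 in the mean (adjusted exact p = 0.00225).

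The exchange factors of eEF1A also moved unequally. EEF1D (chr8:143579697-143599541, minus strand), its delta subunit, rose without overlap in every line. In LM2 cells EEF1D measured 80.4, 119.7 and 129.5 CPM with shCtrl and 136, 141 and 163 CPM with shWDR5, in BrM cells 161, 189 and 152 against 217, 242 and 276 CPM, and in BoM cells 147, 167 and 119.5 against 178, 229 and 181 CPM. The mean change was 0.44 ± 0.09 SE on the log2 scale (edgeR adjusted p = 0.00099). In BrM cells it was called, and the call was lost without LM2_shCtrl replicate 2, LM2_shWDR5 replicate 1 or 2, BrM_shCtrl replicate 1 or 3, BrM_shWDR5 replicate 2 or 3 or BoM_shCtrl replicate 1 (adjusted p up to 0.176 over all alternatives). In BoM cells its adjusted p was 0.0714, and 0.00979 with the replicate block. EEF1B2, the beta subunit, was not called, at -0.14. Counts of EEF1B2 are uncertain, with 31.5% of 50-base stretches shared, mainly with EEF1B2P3. The ratio of EEF1B2 to EEF1D lay between 3.55 and 7.205 over the 9 shCtrl libraries and between 2.49 and 3.76 over the 9 shWDR5 libraries. It fell by 0.59 on the log2 scale (adjusted exact p = 0.00075), and within each line all shWDR5 libraries lay below all shCtrl libraries. EEF1E1, a scaffold of the aminoacyl-tRNA synthetase complex, stood at 0.02 and was not called. EEF1G, the gamma subunit, was listed at 0 counts in all 18 libraries, and 95.5% of its 50-base stretches also occur in another annotated gene, ENSG00000255508, so no level can be read from it.

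EEF2 (chr19:3976056-3985463, minus strand), the translocase, fell in the mean over lines. The 3 shCtrl libraries of LM2 cells held 921, 1559 and 1906 CPM of EEF2 and the shWDR5 libraries 1011, 929 and 1349 CPM. BrM cells held 573, 847 and 668 against 482, 623 and 665 CPM and BoM cells 531, 629 and 417 against 329, 436 and 366 CPM. The ranges overlapped in every line, with a wide spread in LM2_shCtrl, from 921 to 1906 CPM. The mean change was -0.40 ± 0.13 SE on the log2 scale (edgeR adjusted p = 0.0209), called in all 18 fits that left out 1 library at an adjusted p of up to 0.0498. In BoM cells the adjusted p of EEF2 by edgeR was 0.143, and 0.0164 with the replicate block. EEF2K, the kinase that switches eEF2 off, was not called, at 0.13.

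Enzymes that methylate elongation factors were expressed at low levels. EEF1AKMT2 (chr10:124748149-124791887, minus strand) encodes a lysine methyltransferase of eEF1A. Levels of EEF1AKMT2 went from 11.6, 10.1 and 9.20 CPM with shCtrl to 7.72, 8.22 and 5.89 CPM with shWDR5 in LM2 cells, from 8.79, 8.35 and 8.30 to 6.44, 6.11 and 5.20 CPM in BrM cells and from 6.84, 6.11 and 6.35 to 4.67, 4.73 and 5.39 CPM in BoM cells. It was lower in every shWDR5 library than in every shCtrl library of the same line, with a change of -0.49 ± 0.08 SE on the log2 scale (edgeR adjusted p = 0.000175) in the mean. It was called in LM2 cells, where the call was lost without LM2_shCtrl replicate 1 or 2, LM2_shWDR5 replicate 1 or 3 or BrM_shCtrl replicate 1 or 3 (adjusted p up to 0.152 over all alternatives), and in BrM cells, where it was lost without BrM_shCtrl replicate 1 or BrM_shWDR5 replicate 3 (adjusted p up to 0.0892 over all alternatives). EEF1AKMT1 (chr13:20728731-20773961, minus strand), a second eEF1A lysine methyltransferase, rose by 0.36 (edgeR adjusted p = 0.00863). EEF1AKMT1 was at 4.05, 3.86 and 4.05 CPM in LM2_shCtrl and at 4.83, 5.18 and 6.44 CPM in LM2_shWDR5, at 4.06, 4.02 and 4.79 against 5.98, 5.63 and 4.37 CPM in the BrM groups, and at 5.02, 5.37 and 6.11 against 6.04, 7.16 and 8.84 CPM in the BoM groups. Its groups were apart in LM2 cells and overlapped in BrM and BoM cells. EEF1AKMT3, EEF1AKNMT and EEF2KMT were not called, at -0.05, 0.02 and -0.07.

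A textbook list of TOP mRNAs held 9 members. Of the 8 tested, 4 rose, 1 fell and 3 were not called in the mean over lines. Their median log2 fold change was 0.165, and that of the other 47 tested members 0.157. Among all tested genes 15.6% rose and 19.9% fell in the mean over lines, and among those above the members' median level 39.2% and 6.13%.

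Genes that act on these factors were followed by a second list of 50, of which 47 were tested. In the mean over lines 13 rose, 3 fell and 31 were not called, with a median log2 fold change of 0.09. In that contrast 15.6% of all tested genes rose and 19.9% fell, and the small groups below were not tested against these shares. Of 8 genes of eIF2 phosphorylation, 5 rose, namely the kinase genes EIF2AK1, EIF2AK2 and EIF2AK4 and the phosphatase subunit genes PPP1R15A and PPP1R15B. The kinase gene EIF2AK3 was not called, and neither were GCN1 and IMPACT, which regulate the kinase GCN2. Of these PPP1R15A, the stress-induced phosphatase subunit GADD34, changed by 0.63 on the log2 scale (edgeR adjusted p = 2.96e-06). Of 9 listed regulators of eIF4E 8 were tested and none was called, the 4E-BP genes EIF4EBP1 and EIF4EBP2 among them. Of 5 poly(A)-binding protein genes and partners, 3 rose: PABPC1 by 0.42 on the log2 scale (edgeR adjusted p = 8.38e-06), PABPC4 by 0.35 on the log2 scale (edgeR adjusted p = 1.10e-05), and PAIP1. Termination and rescue factors had 2 that rose, ETF1 and GSPT1, and 1 that fell, GSPT2, at -0.45 on the log2 scale (edgeR adjusted p = 0.000224). Among the mitochondrial factors MTRF1, a peptide release factor, fell, at -0.45 on the log2 scale (edgeR adjusted p = 0.00144), and MTRF1L rose. Of 5 other initiation proteins 1 rose, DDX3X. Of the 9 enzymes that make diphthamide or hypusine, the modified residues of eEF2 and eIF5A, DPH7 rose and DPH1 fell, at -0.24 on the log2 scale (edgeR adjusted p = 0.0456).

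**Figure D5:**
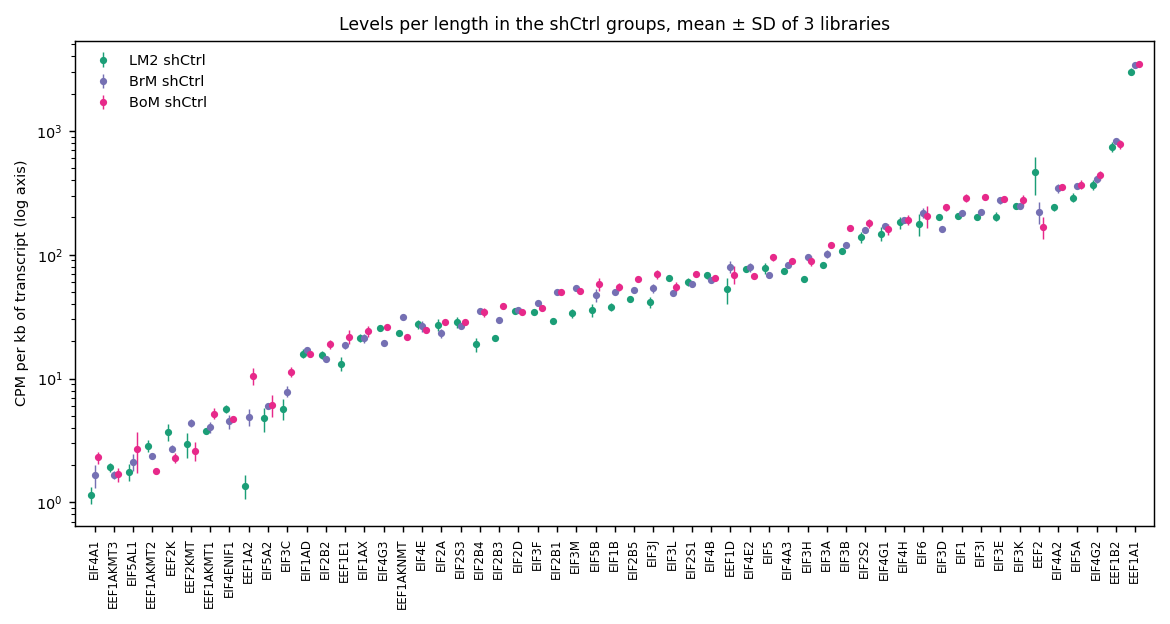
Level of the 55 tested members per length, in CPM per kilobase of the canonical transcript (y axis, log scale), in the shCtrl groups of the 3 lines, as mean ± SD of 3 libraries, ordered by the mean over all 9 libraries. EEF1A1 is highest at 3287, and EEF2 and EEF1A2 differ most between lines.

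Levels of different members can be set side by side only per length, here in CPM per kilobase of the Ensembl canonical transcript. Over the 9 shCtrl libraries EEF1A1 was highest, at a mean of 3287 with a range of 2805 to 3574. It was followed by EEF1B2 at 783.8 (691 to 849), EIF4G2 at 406 (339 to 466), EIF5A at 339.9 (276 to 400.4) and EIF4A2 at 313 (226 to 368). The ranges of EEF1A1 and EEF1B2 stood apart from each other and from the rest, while those of EIF4G2, EIF5A and EIF4A2 overlapped. The lowest tested members were EIF4A1 at 1.70, EEF1AKMT3 at 1.76, EIF5AL1 at 2.20, EEF1AKMT2 at 2.34 and EEF2K at 2.91, and each of these overlapped the next in range. For EIF4A1, and for EEF1B2, this order carries the doubt about shared sequence given above.

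The 3 derivatives also differed without knockdown, in these genes and in the tested genes at large. Either way 40% of the members were called in BrM against LM2, 61.8% in BoM against LM2 and 34.5% in BoM against BrM. Of all tested genes 47.6%, 51.8% and 37.6% were called in these comparisons of shCtrl groups. In BrM_shCtrl against LM2_shCtrl 16 members were higher and 6 lower, where 24.2% and 23.4% of all tested genes were (47.6% either way), and with offsets for GC content 19 were higher and 12 lower, against 27.8% and 32.2% of all genes in that fit. In BoM_shCtrl against LM2_shCtrl 28 were higher and 6 lower, against 25.9% and 25.8% (51.8% either way), and the 6 became 3 without BoM_shCtrl replicate 2 or LM2_shCtrl replicate 1. In BoM_shCtrl against BrM_shCtrl 15 were higher and 4 lower, against 17.8% and 19.8%, and the 4 became 2 without BoM_shCtrl replicate 1 or 2, or BrM_shCtrl replicate 1 or 2. Each pair of these comparisons shares a control group, and each line is 1 derivative, so line and derivation cannot be told apart.

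The largest differences were those of EEF1A2 and EEF2. EEF1A2 stood at 1.95, 2.34 and 2.98 CPM in LM2_shCtrl, at 7.45, 10.3 and 8.43 in BrM_shCtrl and at 17.6, 22.2 and 16.5 in BoM_shCtrl, without overlap between lines. It was higher than in LM2 cells by 1.79 ± 0.33 SE (edgeR adjusted p = 0.000246) in BrM and by 2.92 ± 0.34 SE (edgeR adjusted p = 1.42e-06) in BoM cells, and higher in BoM than in BrM cells by 1.13 ± 0.31 SE (edgeR adjusted p = 0.00887). EEF2 ran the other way, with values given above that did not overlap between LM2_shCtrl and either other control group. Its log2 difference from LM2 cells was -1.09 ± 0.22 SE (edgeR adjusted p = 0.000637) in BrM and -1.48 ± 0.22 SE (edgeR adjusted p = 3.31e-05) in BoM cells. EEF2K was lower too, at -0.47 ± 0.14 SE (edgeR adjusted p = 0.00859) in BrM and -0.69 ± 0.14 SE (edgeR adjusted p = 0.000466) in BoM cells.

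Of the 5 eIF2B genes, 3 were higher in BrM_shCtrl and 5 in BoM_shCtrl than in LM2_shCtrl. EIF2B1, the alpha subunit, stood at 71.5, 68.4 and 69.6 CPM in LM2_shCtrl, at 119, 119.7 and 119.6 in BrM_shCtrl and at 119, 119 and 119 in BoM_shCtrl. It was thus higher than in every LM2 control, by 0.74 ± 0.09 SE (edgeR adjusted p = 1.53e-06) in BrM cells. EIF2B4 was higher there by 0.85 ± 0.11 SE (edgeR adjusted p = 9.29e-06). In BoM against LM2 cells EIF4A1 and EIF3C, both of uncertain count, followed EEF1A2, at 0.98 ± 0.17 SE (edgeR adjusted p = 0.000159) and 0.97 ± 0.18 SE (edgeR adjusted p = 0.000213). The third lowest were EIF3L in BrM against LM2 cells, at -0.44 ± 0.09 SE (edgeR adjusted p = 0.000519), and EEF1AKMT2 in BoM against LM2 cells, at -0.68 ± 0.14 SE (edgeR adjusted p = 0.000582). Between BoM and BrM cells EIF3D was higher by 0.62 ± 0.10 SE (edgeR adjusted p = 0.00014) and EIF3C by 0.54 ± 0.18 SE (edgeR adjusted p = 0.0228). The methyltransferase genes EEF2KMT, EEF1AKNMT and EEF1AKMT2 were lower, at -0.71 ± 0.18 SE (edgeR adjusted p = 0.00445), -0.49 ± 0.09 SE (edgeR adjusted p = 0.000306) and -0.37 ± 0.14 SE (edgeR adjusted p = 0.0448).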

How the data were processed

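RNA was sequenced from 18 libraries in 6 groups of 3. The authors deposited raw counts of reads per gene, which were made per the labels and the study's methods with STAR 2.7.0 on hg38 from paired-end reads of a stranded mRNA kit. A further deposited table holds the authors' own log2 fold changes and adjusted p-values and was not used. Control columns carry a code that was matched to shCtrl by elimination, and WDR5 was lower in the shWDR5 libraries of each line. Genes were kept where their highest normalized count exceeded 145.73, the HTSFilter criterion recomputed over 100 thresholds, which had a mean Jaccard index of 0.97. Counts were tested with edgeR 4.0.16 (R 4.3.3; TMM factors, 6 groups, 12 residual degrees of freedom, adjusted p under 0.05), and a standard error is the absolute log2 fold change divided by the square root of F. Paralogue ratios used a prior of 0.5 CPM and an exact two-sided permutation test. The alternatives were DESeq2 1.42.0, other size factors, other filters, GC offsets, a replicate block, each line alone and each library left out. Replicate numbers were taken to pair libraries of a line where all 3 same-numbered pairs of deviations correlated over 0.1, which held for BoM cells (0.145 to 0.566). All replicate pairs differed by more than counting noise, so each library was 1 replicate. The members, lists and tests were chosen with earlier results of these data known. Named genes were WDR5, every member called under knockdown (per library for the 2 with the smallest p per role group and direction), the 5 highest and 5 lowest per length, the 3 largest changes per direction between controls, the paralogue pairs, and up to 3 pathway genes per direction. The scripts were tested on simulated data.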

Additional observations from a re-analysis of the deposited data

How the results depend on the processing

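For members called in a comparison, 3302 values were recomputed under the alternatives. Of these 2943 stayed called in the same direction, 359 kept the direction and lost the call, and 0 reversed. Of 6323 values of members not called, 304 became called, 218 of them under settings other than leaving out 1 library. Depth ran from 17485841 to 119667013 counts and limits the members with few counts, such as EEF1A2 and EIF4A1. In the mean over lines 6 or 7 members fell and 20 to 29 rose when 1 library was left out. No member differed between lines in any such fit (0 to 0). With GC offsets 33 members rose in the mean over lines, where 31.5% of all tested genes rose. The medians were then 0.1649 for the members and 0.05207 for all tested genes. By DESeq2 33 members rose in that mean, where 19.7% of all tested genes did.

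In LM2 cells 1 member fell with filterByExpr, 2 with no filter and 1 with the line alone, and with 1 library left out 1 to 5. In LM2 cells 7 rose by DESeq2, 5 with median-of-ratios factors, 11 with GC offsets (8.8% of all genes) and 0 with the line alone, and 0 to 6 with 1 library left out. In BrM cells 27 rose with GC offsets, where 13.9% of all genes rose against 2.87% without them, and with 1 library left out 1 to 3 fell and 1 to 13 rose. In BoM cells 4 fell with no filter, 11 rose by DESeq2, 16 with GC offsets (16.2% of all genes) and 3 with the line alone, and with 1 library left out 2 to 3 fell and 3 to 11 rose. Between controls, 12 were lower in BrM than in LM2 cells with GC offsets and 3 in BoM than in LM2 cells with no filter. With 1 library left out these controls gave 5 to 7 lower and 11 to 18 higher for BrM against LM2, 3 to 6 and 22 to 30 for BoM against LM2, and 2 to 4 and 11 to 15 for BoM against BrM. Causes were not tested.

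Deviations of same-numbered libraries from their group means correlated over 0.1 in 3 of 3 pairs in BoM cells, 2 of 3 in LM2 cells and 2 of 3 in BrM cells, so that the numbers met the criterion for pairs in BoM cells and not in the other lines. The 9 same-numbered pairs averaged 0.361, a hint of pairing from the data and not from the labels. By line their mean was 0.444 in LM2, 0.295 in BrM and 0.345 in BoM cells. The 18 others averaged -0.195. Deviations from a group mean cancel within the group, so this negative value follows from the positive one and adds nothing to it. With a replicate block 8 rose and 4 fell in LM2 cells (3.86% and 8.01% of all genes), against 2 and 4 without it, 4 fell in BoM cells, and in the mean 6 fell and 31 rose (24.8% and 22.2%). With the block and GC offsets 18 rose in LM2 cells, 4 fell and 31 rose in BrM cells, and 4 fell and 19 rose in BoM cells, where 16.6%, 22.9% and 24.1% of all genes rose in these lines.

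The ratio change of EIF4A1 to EIF4A3 turned to -0.02411 with a prior of 2 CPM and to -0.0005211 without BrM_shCtrl replicate 1, and that of EIF5A to EIF5A2 to 0.002568 without BrM_shWDR5 replicate 1. With 1 library left out the log2 ratio changes ran from 0.952 to 1.259 for EEF1A1/EEF1A2, -0.6414 to -0.5257 for EEF1B2/EEF1D, 0.1694 to 0.2309 for EIF1/EIF1B, -0.1916 to -0.05316 for EIF4A1/EIF4A2, -0.0005211 to 0.09522 for EIF4A1/EIF4A3, 0.00769 to 0.09423 for EIF4E/EIF4E2, -0.5263 to -0.4294 for EIF4G1/EIF4G2, 0.5252 to 0.5945 for EIF4G1/EIF4G3 and -0.1514 to 0.002568 for EIF5A/EIF5A2.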
